A study of Mus musculus with 16 samples.

Results

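The 8 genes described here, Duxf3, Zscan4c, Zscan4d, Zscan4f, Zfp352, Tcstv1, Tcstv3 and Tmem92, were chosen by name, as Dux and genes of the 2-cell transcription burst, and located in the RefSeq annotation of GRCm38.p6. They are 8 of 21887 protein-coding genes on chromosomes 1 to 19, X and Y. Mouse embryos were collected at the late 2-cell stage, 36 h after fertilization, and H3K27ac and H3K4me3 were mapped by ultra-low-input native chromatin immunoprecipitation (ULI-NChIP-seq), in which micrococcal nuclease cuts uncrosslinked chromatin and antibody-bound fragments are sequenced. The question was how a mutant Hdac1, a histone deacetylase, alters the placement of both marks when the embryonic genome switches on. All embryos were injected as zygotes, control embryos with water and mutant embryos with Hdac1 mutant mRNA. The mutation, the mouse strain and the number of embryos per library are not given in the sources used here. The control injection held no RNA, and injected embryos still carry their own Hdac1 gene. The 16 libraries formed 8 groups of 2, immunoprecipitation and input for each mark and injection. The immunoprecipitation groups are represented by 4 deposited peak lists, 1 for each mark and injection. These lists have no scores and no values per library, so the depth is unknown, no value has a replicate error, and no test of the injections could be made. Lower and higher below compare the extent of called peaks in single lists.

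Dux encodes a double-homeobox transcription factor that opens and activates the genes and MERVL retrotransposon promoters of the 2-cell embryo. Zscan4 genes, a chromosome 7 cluster of SCAN-domain zinc-finger genes, Zfp352, a zinc-finger gene, and the Tcstv genes are among the best-known markers of that burst and of the rare 2-cell-like cells in embryonic stem cell cultures. H3K27ac marks active promoters and enhancers, and H3K4me3 mainly promoters. Hdac1 removes acetyl groups from histones. Dux, Zscan4 and Tcstv belong to families of near-identical copies, so reads from one copy could have been placed on another or dropped by the authors' alignment, and the values of these genes are uncertain for that reason.

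RefSeq promoter sequences, from 250 bases before to 50 bases after the annotated start, were at hand for 5 of the 8 genes. The first 4 are shown because they bear on how well these loci can be told apart and on a Dux-type motif, and the fifth for an internal repeat. Capitals in Duxf3 mark a match to GATTNAATC, a palindromic core of the Dux motif. Capitals in Zscan4c mark a match to TGATTNAAT, a form searched after the sequences had been seen. Capitals in Zscan4f and Zscan4d mark bases that differ from Zscan4c in the aligned stretch, and capitals in Zfp352 mark each copy of GGACAACAC. The Duxf3 promoter lies on the minus strand at chr10:58233040-58233339, Zscan4c on the plus strand at chr7:11005495-11005794, Zscan4f on the plus strand at chr7:11397665-11397964, Zscan4d on the minus strand at chr7:11166099-11166398 and Zfp352 on the plus strand at chr4:90218570-90218869, all GRCm38.p6.
Duxf3: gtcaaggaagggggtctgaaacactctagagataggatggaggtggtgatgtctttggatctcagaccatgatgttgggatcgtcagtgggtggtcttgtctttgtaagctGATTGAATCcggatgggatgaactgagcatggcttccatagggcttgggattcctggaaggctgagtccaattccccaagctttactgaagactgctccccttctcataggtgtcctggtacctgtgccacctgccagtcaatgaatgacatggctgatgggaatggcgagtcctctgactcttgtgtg
Zscan4c: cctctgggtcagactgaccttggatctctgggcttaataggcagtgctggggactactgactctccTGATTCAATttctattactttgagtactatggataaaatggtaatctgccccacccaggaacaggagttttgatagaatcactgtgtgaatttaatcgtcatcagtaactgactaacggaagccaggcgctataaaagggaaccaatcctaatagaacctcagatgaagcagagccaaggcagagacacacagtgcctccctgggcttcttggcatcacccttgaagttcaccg
Zscan4f: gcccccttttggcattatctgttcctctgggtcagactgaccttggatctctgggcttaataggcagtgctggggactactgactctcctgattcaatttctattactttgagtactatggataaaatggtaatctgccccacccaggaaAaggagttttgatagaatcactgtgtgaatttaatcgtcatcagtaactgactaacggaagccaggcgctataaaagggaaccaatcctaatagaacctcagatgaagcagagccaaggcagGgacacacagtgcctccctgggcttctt
Zscan4d: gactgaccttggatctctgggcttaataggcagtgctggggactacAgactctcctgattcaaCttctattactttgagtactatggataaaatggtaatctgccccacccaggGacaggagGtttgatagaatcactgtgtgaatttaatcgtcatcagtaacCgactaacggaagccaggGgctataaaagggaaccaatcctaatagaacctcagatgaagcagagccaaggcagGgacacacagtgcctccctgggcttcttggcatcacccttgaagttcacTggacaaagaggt
Zfp352: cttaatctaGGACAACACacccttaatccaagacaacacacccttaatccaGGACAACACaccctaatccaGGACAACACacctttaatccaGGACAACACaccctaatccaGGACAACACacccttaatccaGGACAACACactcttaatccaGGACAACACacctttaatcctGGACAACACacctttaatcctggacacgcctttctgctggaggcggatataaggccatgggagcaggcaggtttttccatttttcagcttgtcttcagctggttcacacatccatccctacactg

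The Zscan4 promoters were close to identical over most of their length. Zscan4c and Zscan4f differed at 2 of 277 aligned bases, C128A and A250G, with positions counted from 1 at the 5′ end of the Zscan4c sequence, and shared an unbroken run of 127 bases. Zscan4c and Zscan4d differed at 8 of 289 aligned bases, 97.2% identity, and shared no run longer than 55 bases. Each of the promoters of Zscan4b, Zscan4c, Zscan4d and Zscan4f shared a 50-base run with the other 3 and with no other promoter of the table, whereas Duxf3 and Zfp352 shared none. GATTNAATC was found on either strand in 88 of 32851 promoters (0.268%), and among the 5 genes only in Duxf3, 139 bases before its start. TGATTNAAT, which overlaps it by all but one base, was found in 236 promoters (0.718%), in Duxf3 again, in Zscan4c 184 bases before the start, in Zscan4f 161 bases before it and, on the other strand and at another place, in Zscan4b 72 bases before it. In Zscan4d the substitution T75C relative to Zscan4c falls on the last base of that match. GGACAACAC, a unit picked after the sequence had been seen and searched on both strands, occurred 8 times in the Zfp352 promoter, and no other promoter of the table held it more than once. A match is a description of these letters and not a binding site.

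At all 8 genes both lists placed H3K27ac at a gene end, where a gene end is a window of 2 kb on each side of either end of the gene and 1 shared base counts as a peak. Over all protein-coding genes the share was 54.8% in the control list and 58.0% in the mutant list, and 42.4% had a peak in both. Since all 8 were marked in the control list, none could be marked in the mutant list alone, as 34.6% of genes without a control H3K27ac peak were. H3K4me3 peaks were at 6 of the 8 in the control list and at all 8 in the mutant list, against 74.7% and 72.9% of all genes. Both lists marked 6, against 68.0% of all genes. The 2 that held an H3K4me3 peak in the mutant list alone were Zscan4c and Zscan4f. Of all genes without a control H3K4me3 peak, 19.2% had one in the mutant list, which is 4.85% of all genes. With gene-end windows of 5 kb, Zscan4f also reached a control H3K4me3 peak, 3365 bp upstream of its start. The mutant H3K27ac peaks of Zscan4c and Zscan4f, 263 and 165 bp wide, dropped out when the narrowest peaks were removed to give both H3K27ac lists equal size. The control H3K27ac peaks of Duxf3 and Zscan4f, 483 and 227 bp wide, dropped out with only the wider 50% of each list. That left 6 genes marked in the control and 5 in the mutant H3K27ac list. An overlap of at least 500 bp left 6 in each, without Duxf3 and Zscan4f in the control list. The share of all genes under these settings was not computed. In the lists as deposited, no gene of the 8 had a peak in the control list alone, against 22.7% of control-marked genes for H3K27ac and 8.94% for H3K4me3. The plot of covered bases at gene ends shows these values gene by gene.

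**Figure D1:**
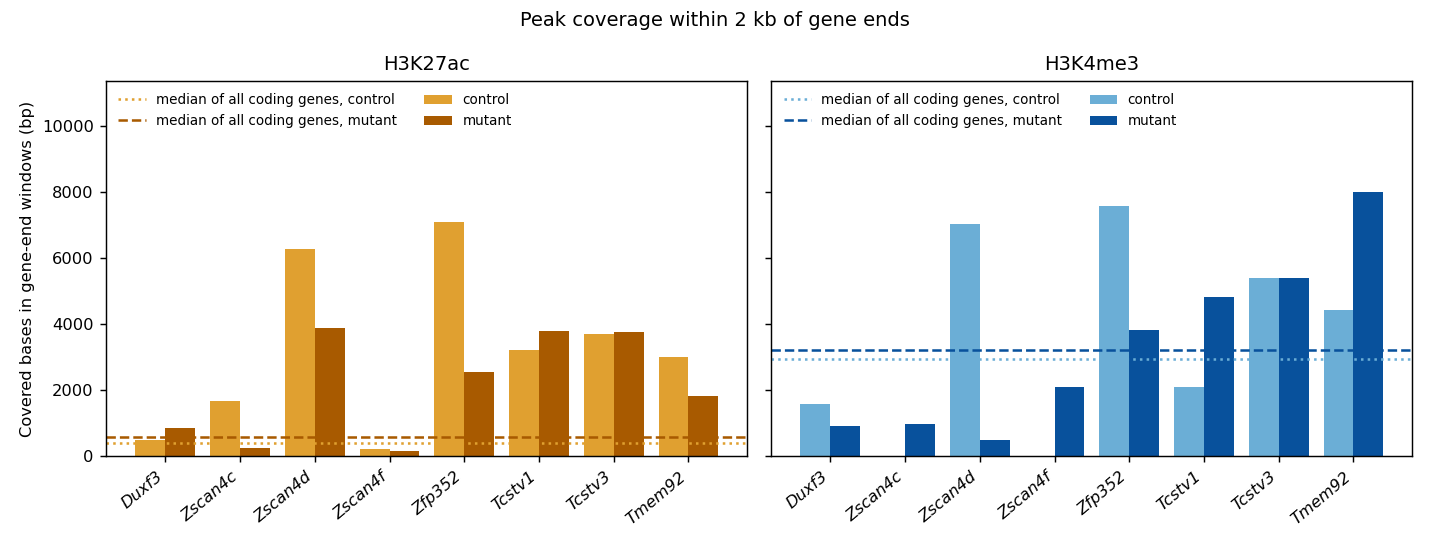
Bases of the gene-end windows covered by peaks (bp, y axis) for each of the 8 genes (x axis), with 1 bar for each deposited list and 1 panel for each mark; horizontal lines give the medians over all protein-coding genes. Zscan4c and Zscan4f have no control H3K4me3 bar, and Zscan4d and Zfp352 have shorter mutant than control bars for both marks.

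Duxf3 (gene ID 74399, chr10:58229505-58233089) was the least marked of the 8 in its surroundings in both H3K27ac lists. At its gene ends H3K27ac peaks covered 483 bp in the control list and 851 bp in the mutant list, and H3K4me3 peaks covered 1596 and 910 bp. The control and mutant H3K27ac peaks shared no base. The control peak lay from 5000 to 5482 bp downstream of the start, beyond the 3′ end, and overlapped the gene-end window of the neighbouring LOC100504180. The mutant peak lay inside the gene, from 992 to 1842 bp downstream of the start. The control H3K4me3 peak spanned 265 to 1860 bp and the mutant peak 958 to 1867 bp downstream of the start, and the mutant peak lay within the control peak for 99.2% of its covered bases. In the mutant list all 851 bp of H3K27ac lay under the H3K4me3 peak, while in the control list the marks shared no base. No list had a peak over the 300-base Duxf3 promoter that holds the GATTNAATC match.

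In the 100 kb centred on Duxf3, H3K27ac peaks covered 1404 bp in the control list and 4897 bp in the mutant list, in 3 and 7 peaks with no shared base. H3K4me3 peaks covered 6.93 and 5.96 kb. Between 24.7% and 34.0% of all protein-coding genes had less than this in the respective list, so Duxf3 lay in the lower part of the distribution in all 4 lists. Gm4981 (chr10:58234848-58236660) lies so close that its gene-end window overlaps that of Duxf3.

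The values of the Zscan4 genes differed from one another. Their promoters are nearly the same sequence, so the limit on read placement given above applies to each copy here and below. Zscan4d (gene ID 545913, chr7:11161643-11166148) had wide peaks of both marks in the control list that were less extensive in the mutant list. Peaks covered 6271 bp of its 8000 bp gene-end window for control H3K27ac and 3879 bp for mutant H3K27ac. For H3K4me3 they covered 7029 bp in the control list and 507 bp in the mutant list. The widest control H3K27ac peak at its gene ends ran from 1003 bp upstream to 5501 bp downstream of the start, over the whole gene. The mutant list had a peak on each side of the start instead, ending 430 bp upstream and beginning 792 bp downstream. The control H3K4me3 list also had a peak on each side of the start, and the mutant H3K4me3 list had none over the gene body. Its single peak at this gene lay from 1494 to 3736 bp upstream.

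Zscan4c (gene ID 245109, chr7:11005745-11010547) and Zscan4f (gene ID 665902, chr7:11397915-11402318) each held less H3K27ac at the gene ends than Zscan4d in both lists, and H3K4me3 peaks over their starts in the mutant list alone. At Zscan4c, H3K27ac covered 1679 bp in the control list, from 1460 bp upstream to 218 bp downstream of the start. The mutant H3K27ac peak covered 263 bp, lay wholly inside the stretch of the control peak and ended 544 bp upstream of the start. H3K4me3 covered 0 bp in the control list and 983 bp in the mutant list (chr7:11004935-11005917), the start included. At Zscan4f, H3K27ac covered 227 and 165 bp, in peaks about 5 kb downstream of the start, near the 3′ end. H3K4me3 covered 0 bp in the control list and 2112 bp in the mutant list, in a peak that ran from 2112 bp upstream to 111 bp downstream of the start (chr7:11395803-11398026). The H3K4me3 order of Zscan4d, higher in the control list, was thus opposite to that of Zscan4c and Zscan4f.

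**Figure D2:**
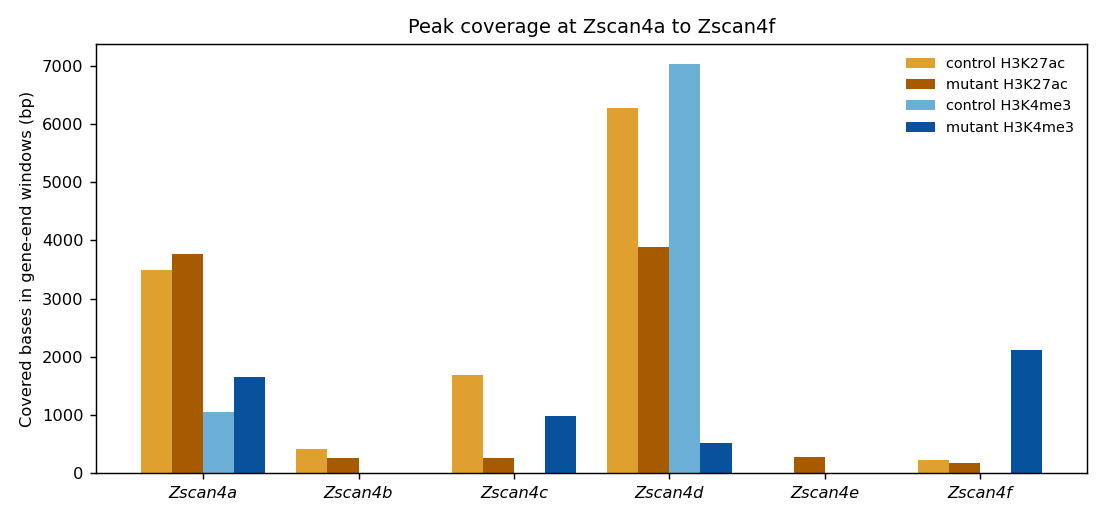
Gene-end bases covered by peaks (bp, y axis) for Zscan4a to Zscan4f (x axis), with 1 bar for each deposited list. In both H3K27ac lists Zscan4a and Zscan4d have the longest bars, and for H3K4me3 the mutant bars of Zscan4c and Zscan4f stand beside control values of 0.

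The other copies of the cluster also differed from one another. Zscan4a, annotated as a transcribed pseudogene, had 3489 and 3765 bp of H3K27ac and 1040 and 1655 bp of H3K4me3 in the control and mutant lists. Zscan4b had 404 and 249 bp of H3K27ac and no H3K4me3 peak in either list. Zscan4e, a pseudogene, had 0 and 271 bp of H3K27ac and no H3K4me3. Summed over the 6 copies, gene-end H3K27ac covered 12070 bp in the control list and 8592 bp in the mutant list, and H3K4me3 covered 8069 and 5257 bp. Zscan4d decided the order of the H3K4me3 sums. Without it the other 5 copies had 1040 bp of control and 4750 bp of mutant H3K4me3, the opposite order, and 5799 bp of control and 4713 bp of mutant H3K27ac.

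Zfp352 (gene ID 236537, chr4:90218820-90225687) was less covered in the mutant list for both marks. H3K27ac peaks covered 7091 bp of the 8000 bp gene-end window in the control list and 2549 bp in the mutant list. H3K4me3 peaks covered 7573 and 3812 bp. All mutant peak bases at its gene ends lay inside control peaks, and they made up 35.9% of the control H3K27ac bases and 50.3% of the control H3K4me3 bases. The widest control H3K27ac peak at its gene ends, 9532 bp, ran from 2695 bp upstream to 6836 bp downstream of the start. In the mutant list the nearest H3K27ac peaks stopped 373 bp upstream and resumed 1079 bp downstream, leaving the promoter with its GGACAACAC copies without a peak. The widest H3K4me3 peak was 10658 bp in the control list and 6680 bp in the mutant list, and covered the start in both.

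Tcstv1 (gene ID 54382, chr13:119893387-119894785) and Tcstv3 (gene ID 236219, chr13:120316862-120318261) belong to the 2-cell-stage variable group of short genes. Gene-end windows were 5399 and 5400 bp, because the genes are shorter than the windows are wide. At Tcstv1, H3K27ac covered 3214 bp in the control list and 3805 bp in the mutant list, and H3K4me3 covered 2115 and 4828 bp. The control H3K4me3 bases were all inside the mutant peak, which was 6879 bp wide (chr13:119891958-119898836). At Tcstv3, H3K4me3 covered the whole window in both lists, and H3K27ac covered 3717 and 3761 bp, of which 2078 bp were shared. The peaks around Tcstv3 were nevertheless narrower in the mutant list. The widest H3K27ac peak measured 12804 bp against 8130 bp, and the widest H3K4me3 peak 12966 bp against 9088 bp. Both H3K27ac peaks and the control H3K4me3 peak extended to the neighbouring gene BC147527 (chr13:120300233-120308843), so they cannot be assigned to Tcstv3 alone. No list had a peak on chromosome 13 past 120321488, and the gene table listed 0 genes past Tcstv3, so the right side of its surroundings held no peak base beyond that point. This check was added after the peaks had been seen. Whether the assembly holds sequence there was not examined, and the 100 kb values of Tcstv3 include that stretch.

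Tmem92 (gene ID 544806, chr11:94777217-94782703), which encodes a transmembrane protein, had the widest H3K4me3 peak of the 8 genes in each list. As at Tcstv1, H3K4me3 was more extensive in the mutant list. Its gene-end windows were covered by 4445 bp of H3K4me3 in the control list and over the full 8000 bp in the mutant list. The mutant peak was 30848 bp wide (chr11:94773278-94804125) and also covered the neighbouring Gm11546 (chr11:94797239-94802035), while the widest control peak at the gene ends was 13477 bp. A control peak of 17637 bp lay further out in the 100 kb. H3K27ac covered 3021 bp in the control list and 1841 bp in the mutant list, with no base in common. The widest control H3K27ac peak (chr11:94781871-94792279) began before one end of the gene and ran outward, and the mutant peak (chr11:94777429-94780756) lay inside the gene. All H3K27ac bases at its gene ends lay under H3K4me3 peaks in both conditions.

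**Figure D3:**
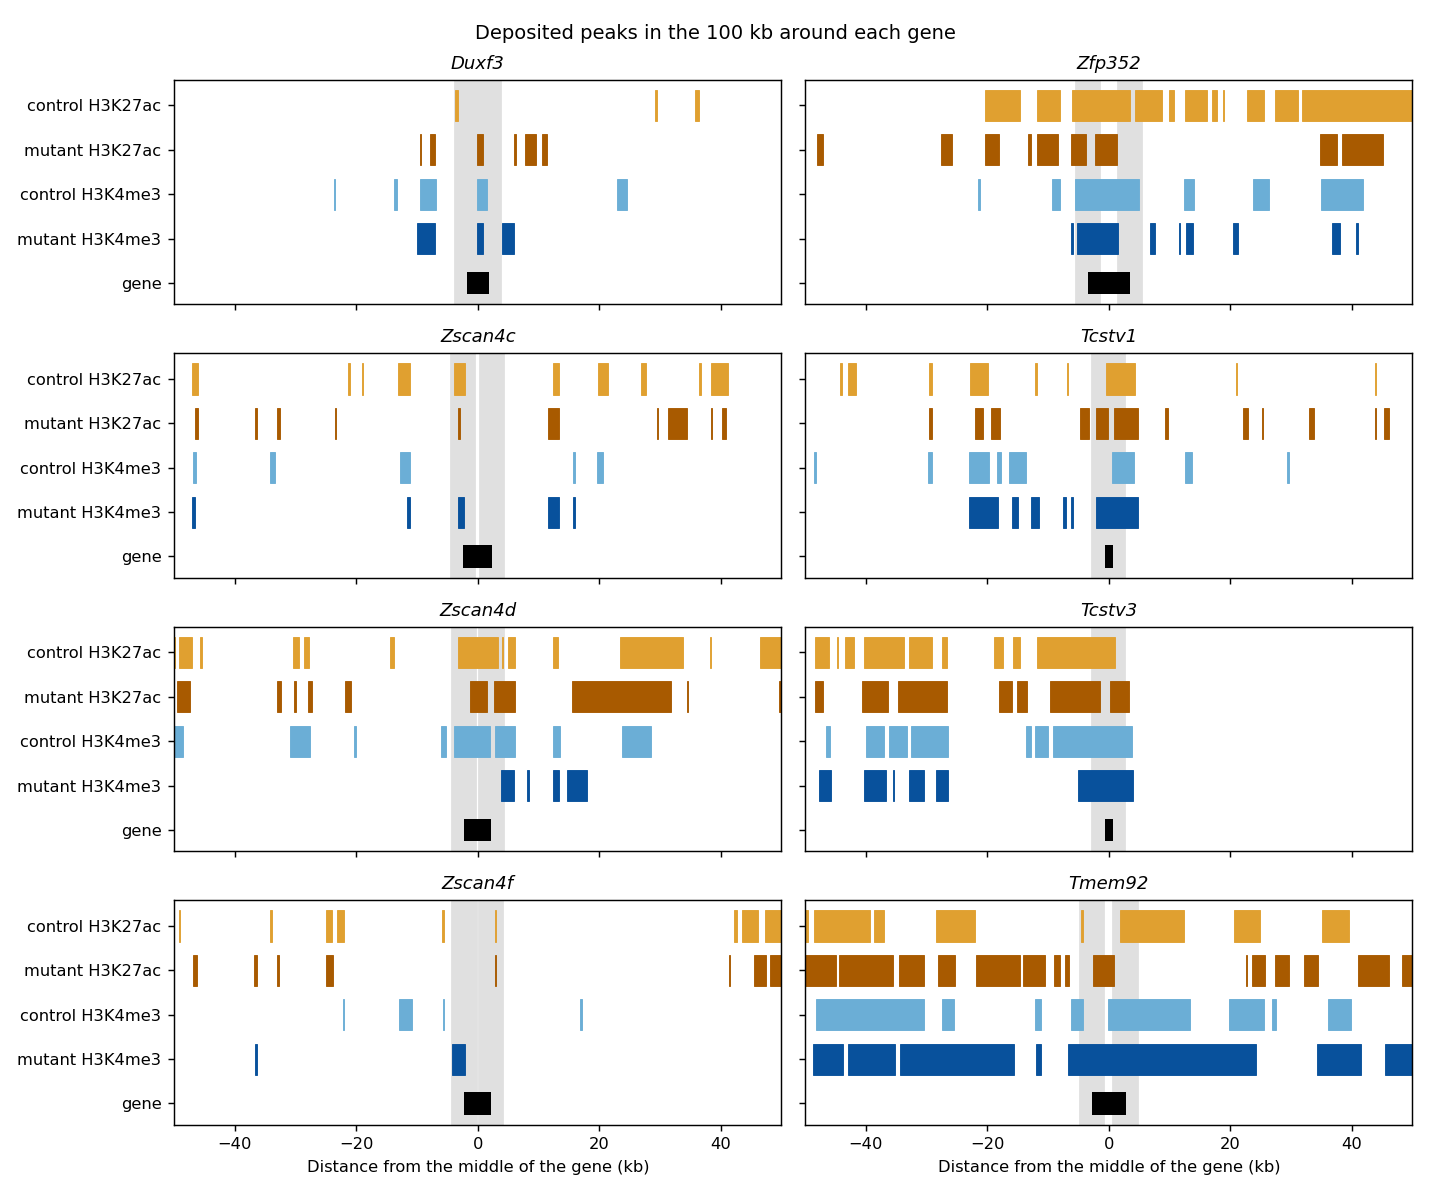
Deposited peaks of the 4 lists around each of the 8 genes, drawn as bars against the distance from the gene's midpoint (kb, x axis), with the gene as a black bar, the gene-end windows shaded and 1 row for each list. The Tmem92 panel shows the 30848 bp mutant H3K4me3 peak, and the Zfp352 panel shows narrower mutant than control peaks of both marks.

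Over the 8 genes, gene-end H3K27ac bases were lower in the mutant list at 5 (Zscan4c, Zscan4d, Zscan4f, Zfp352 and Tmem92) and higher at 3 (Duxf3, Tcstv1 and Tcstv3), against 52.6% and 45.5% of all genes with any such bases. This split is near the background. The widest gene-end H3K27ac peak was narrower in the mutant list at 7 of 8, all but Duxf3, against 67.2% of all genes marked in both lists. For H3K4me3, gene-end bases were lower at 3 (Duxf3, Zscan4d and Zfp352), higher at 4 (Zscan4c, Zscan4f, Tcstv1 and Tmem92) and equal at Tcstv3, against 41.0% lower and 52.3% higher over all genes. The widest gene-end H3K4me3 peak was narrower at 4 of the 6 genes marked in both lists, Duxf3, Zscan4d, Zfp352 and Tcstv3, against 37.4% of all genes. The median of gene-end H3K27ac over the 8 genes was 3117.5 bp in the control list and 2195 bp in the mutant list, beside 403 and 581 bp over all genes. For H3K4me3 the medians were 3280 and 2962 bp, beside 2938 and 3213 bp. The H3K27ac medians of the 8 were above those of all genes in both lists. The all-gene medians, here and beside the related lists below, include genes without a peak. All 8 genes were marked, against 54.8% and 58.0% of all genes, so these medians are not independent of the counts marked. The widest gene-end H3K27ac peak had a median of 5702.5 and 3388 bp over the 8, below the 7607.5 and 4179.5 bp of all marked genes.

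Placement at the start was examined for the 5 genes with a promoter sequence. Control H3K27ac peaks covered all 300 bases of the Zscan4c, Zscan4d and Zfp352 promoters, and mutant H3K27ac peaks covered none of the 5, against 29.7% and 25.8% of all promoters. Of all promoters covered in the control H3K27ac list, 48.8% were uncovered in the mutant list. H3K4me3 peaks covered the Zfp352 promoter in both lists and the Zscan4c and Zscan4f promoters in the mutant list alone, all 300 bases in each case, against 54.8% of all promoters in the control list and 52.7% in the mutant list. Of all promoters uncovered in the control H3K4me3 list, 13.1% were covered in the mutant list. At Zscan4c the mark over the start thus differed between the conditions, H3K27ac in the control list and H3K4me3 in the mutant list.

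**Figure D4:**
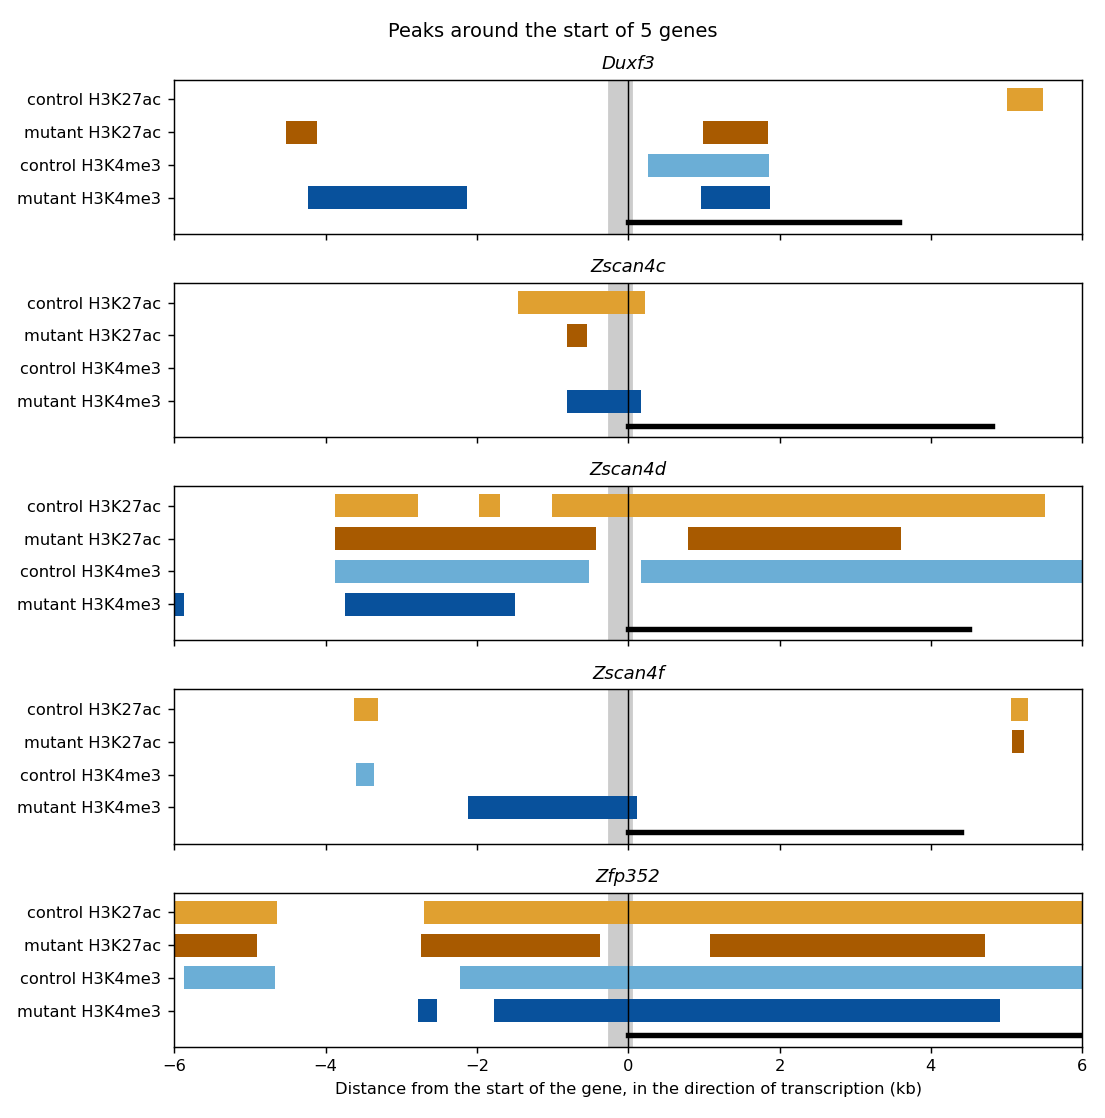
Peaks of the 4 lists relative to the transcription start (kb, x axis, upstream negative) of the 5 genes with an annotated start, with 1 row for each list, the 300-base promoter shaded and the gene as a black line. No mutant H3K27ac peak covers the 300-base promoter of any of the 5, and mutant H3K4me3 peaks cover those of Zscan4c, Zscan4f and Zfp352.

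Peaks further upstream of the Zscan4 starts are described for a window of 8.5 to 11.5 kb that was drawn around them, so their number there is no result. Upstream of Zscan4c lay a control H3K27ac peak (8789 to 10732 bp), a control H3K4me3 peak (8773 to 10376 bp) and a mutant H3K4me3 peak (8789 to 9192 bp). The 3 peaks thus overlapped one another. Upstream of Zscan4d lay a control H3K27ac peak (10207 to 10988 bp), a control H3K4me3 peak (10177 to 11210 bp) and a mutant H3K4me3 peak (10192 to 11135 bp). Upstream of Zscan4f lay only a control H3K4me3 peak (8694 to 10707 bp). The mutant H3K27ac list had no peak in that window at these 3 genes, and Zscan4b had none in any list. The window is not particular to Zscan4: mutant H3K27ac peaks lay there at Duxf3 (8805 to 9549 bp) and Zfp352 (9324 to 9817 bp), and between 32.4% and 37.0% of all 32851 promoters had a peak there, depending on the list.

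In the surrounding 100 kb the genes fell far apart from one another. Zfp352 had the most H3K27ac in the control list, 53.6 kb, and 24.7 kb in the mutant list. Its place among all genes was above 84.3% of them in the control list and above 66.3% in the mutant list. H3K4me3 around Zfp352 covered 23.5 and 11.7 kb. Around Tmem92 both marks covered more in the mutant list, 36.9 and 50.5 kb for H3K27ac and 46.4 and 74.9 kb for H3K4me3. Tmem92 stood above 81.7% of all genes for control H3K4me3 and above 98.0% for mutant H3K4me3. Around Zscan4d the H3K27ac extent was close, 27.7 and 28.1 kb, whereas H3K4me3 covered 21.4 kb in the control list and 6.70 kb in the mutant list. Zscan4d thereby stood above 56.9% of all genes for control H3K4me3 and above 31.4% for mutant H3K4me3.

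Around the other 4 genes the control and mutant extents lay within 1.5 times of each other. H3K27ac covered 11.6 and 7.76 kb around Zscan4c, 9.16 and 6.39 kb around Zscan4f, 10.9 and 13.9 kb around Tcstv1, and 30.7 and 28.5 kb around Tcstv3. H3K4me3 covered 4.21 and 3.94 kb around Zscan4c, 2.79 and 2.56 kb around Zscan4f, 12.5 and 14.7 kb around Tcstv1, and 28.5 and 19.6 kb around Tcstv3. Around Zscan4f the control and mutant H3K4me3 peaks shared no base. Covered H3K4me3 bases were lower in the mutant list around 6 of the 8 genes, all but Tcstv1 and Tmem92, against 44.6% of all genes with any. For H3K27ac they were lower around 4, Zscan4c, Zscan4f, Zfp352 and Tcstv3, against 54.6%, and higher around the other 4, against 45.4%. The number of H3K27ac peaks was higher in the mutant list around 3 genes, Duxf3, Tcstv1 and Tmem92, against 66.8% of all genes, and lower around 4, Zscan4d, Zscan4f, Zfp352 and Tcstv3, against 22.7%. The number of H3K4me3 peaks was lower around 6, all but Zscan4c and Zfp352, against 48.7%. The median over the 8 genes was 17.0 kb of control and 9.21 kb of mutant H3K4me3, beside 16.3 and 18.3 kb over all genes. For H3K27ac it was 19.6 and 19.3 kb, beside 12.5 and 13.9 kb.

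**Figure D5:**
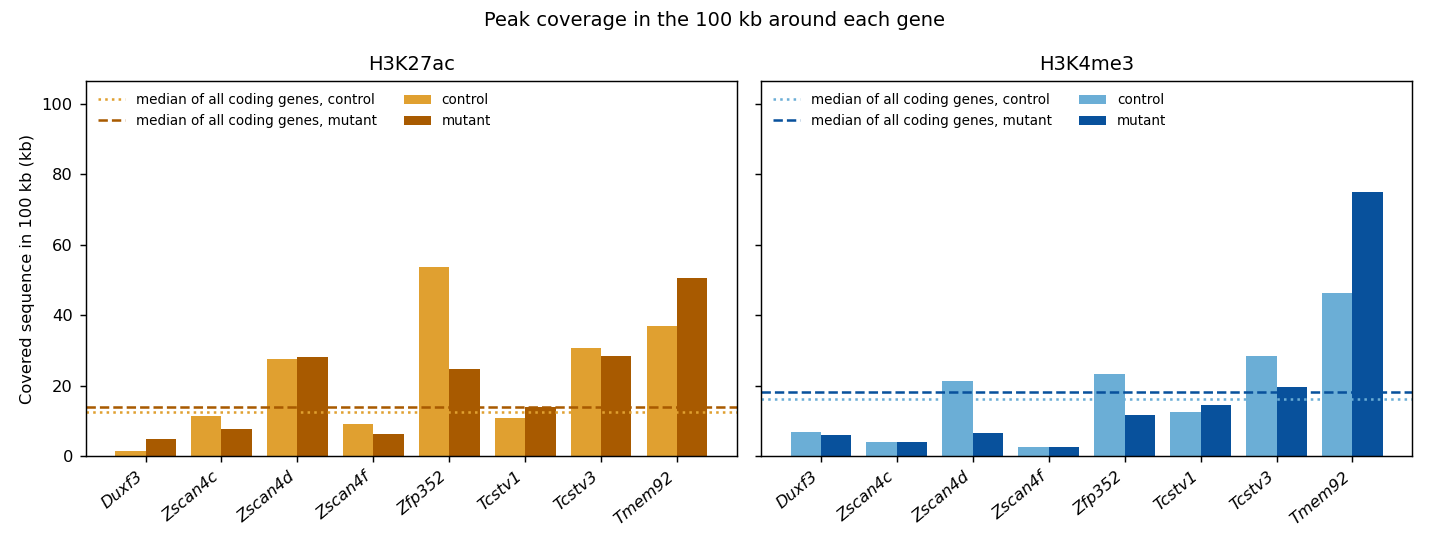
Covered length in the 100 kb centred on each gene (kb, y axis) for the 8 genes (x axis), with 1 bar for each deposited list and 1 panel for each mark. Zfp352 has 53.6 kb of control and 24.7 kb of mutant H3K27ac, and Tmem92 stands highest for H3K4me3 in both lists.

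Both marks were present together at the gene ends of 6 of the 8 genes in the control lists and of all 8 in the mutant lists, against 50.9% and 51.4% of all genes. All 4 lists had a peak at 6 of the 8, against 38.9% of all genes. Narrow peaks seldom overlapped between the conditions, in width classes set after the lists had been seen. Over the whole genome, 11.6% (95% Wilson interval 11.2 to 12.0%) of control H3K27ac peaks of at most 500 bp overlapped a mutant H3K27ac peak, and 10.3% (9.98 to 10.6%) in the other direction. Among H3K27ac peaks wider than 5000 bp the shares were 83.2% (82.6 to 83.8%) and 83.0% (82.3 to 83.6%). These intervals cover counting error only. A wider peak has more bases with which to meet another, and the overlap expected for each width was not computed. At the gene ends of the 8 genes, 6 H3K27ac peaks are of the narrow class, the control peak of Duxf3, the mutant peak of Zscan4c, both peaks of Zscan4f and the lesser control peaks of Zscan4d (272 bp) and Tmem92 (188 bp). Those of Duxf3 and Tmem92 shared no base with the other condition, and that of Zscan4d lay inside a mutant peak. The mutant peak of Zscan4c lay wholly inside the control peak, and at Zscan4f 165 bp were shared, all of the mutant and 72.7% of the control bases.

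Other genes of the 2-cell programme and reported regulators of Dux were counted for context. Of 32 other 2-cell genes, H3K27ac peaks stood at 24 in the control list and 21 in the mutant list, where 54.8% and 58.0% of all genes were marked, and H3K4me3 peaks at 26 and 23, where 74.7% and 72.9% of all genes were. The H3K27ac peaks present in the control list alone were those of Tdpoz1, Gm2016 and Pramel19, 3 of 24 against 22.7% of all control-marked genes, and no gene of this list had one in the mutant list alone, against 34.6% of all genes without a control peak. For H3K4me3 the control list alone marked Duxbl1, Tdpoz1, Sp110 and Gm2016, 4 of 26 against 8.94% of all control-marked genes, and the mutant list alone marked Usp17ld, a deubiquitinase gene, 1 of the 6 genes without a control peak, against 19.2% of all such genes. Duxbl1 is a double-homeobox relative of Dux, and Tdpoz1 encodes a protein with TRAF and POZ domains. Several of these rested on short overlaps, 18 bp at Duxbl1 and 333 bp at Sp110, while Tdpoz1 had 5086 bp of H3K4me3 in the control list and 0 bp in the mutant list. The median gene-end H3K27ac of this list was 1977.5 bp in the control and 673.5 bp in the mutant list, beside 403 and 581 bp over all genes, and its H3K4me3 median 2581 and 2634 bp, beside 2938 and 3213 bp.

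All 4 reported activators of Dux, Dppa2, Dppa4, Nelfa and Trp53, were marked in every list, against 38.9% of all genes. Dppa2 and Dppa4, which encode partner proteins that act upstream of Dux, were less covered in the mutant list for both marks. They are neighbours on chromosome 16 (Dppa4 at chr16:48283735-48294292 and Dppa2 at chr16:48310274-48319513), and 1 control H3K27ac peak of 46683 bp reached the gene-end windows of both, so their H3K27ac values are not separate observations. At Dppa2, H3K27ac covered 8000 and 5709 bp and H3K4me3 covered 8000 and 4000 bp. At Dppa4, H3K27ac covered 6273 and 4016 bp and H3K4me3 covered 7028 and 4000 bp. Over all genes with any, 52.6% had fewer gene-end H3K27ac bases in the mutant list. H3K27ac was not lower at the other activators, with 5185 and 5924 bp at Nelfa and 3596 and 3615 bp at Trp53. Nelfa encodes a subunit of the negative elongation factor complex, and Trp53 the p53 tumour suppressor. H3K4me3 was lower in the mutant list at both, 4000 and 2627 bp at Nelfa and 5329 and 4000 bp at Trp53. Over all genes with any, 41.0% had fewer gene-end H3K4me3 bases in the mutant list. Of 15 reported repressors of Dux or of the 2-cell state, 14 held H3K27ac peaks in each list and all 15 held H3K4me3 peaks in both, where the shares of all genes were again 54.8% and 58.0% for H3K27ac and 74.7% and 72.9% for H3K4me3. Kdm1a, a histone demethylase gene, had 3283 bp of H3K27ac in the control list and 0 bp in the mutant list, and E2f6, a component of a Polycomb complex, had 0 and 1765 bp. Kdm1a was thus 1 of 14 control-marked repressors without a mutant H3K27ac peak, against 22.7% of all control-marked genes. E2f6 was the only repressor without a control H3K27ac peak, and 34.6% of all such genes had one in the mutant list. The median gene-end H3K27ac of the repressors was 6198 bp in the control and 2824 bp in the mutant list, beside 403 and 581 bp over all genes. Their H3K4me3 median was 4212 and 4089 bp, beside 2938 and 3213 bp.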

How the data were processed

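H3K27ac and H3K4me3 were profiled by ULI-NChIP-seq in 16 libraries. Per the submitters' processing notes, CASAVA, Trimmomatic, Bowtie2, SAMtools, Picard, MACS2 and deepTools were used with the builds mm10 and GRCm38, and no role, version or threshold is given. The authors deposited 1 peak list per immunoprecipitation group, holding the positions of its peaks and no other column. Whether replicates were pooled before calling is not given in the sources used here.

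Peaks on chromosomes 1 to 19, X and Y were intersected with gene-end windows (2 kb to either side) of RefSeq GRCm38.p6 protein-coding genes and with 100 kb centred on each gene, with an overlap of at least 1 bp. The gene table gives no strand, so strand and starts came from RefSeq promoters of GRCm38.p6. Python 3.11.15, NumPy 2.4.6, pandas 2.3.3, SciPy 1.17.1 (Wilson intervals), Biopython 1.88 and Matplotlib 3.10.9 were used. Interval code was tested on simulated data. The smallest peak width was 168, 149, 169 and 182 bp in the control H3K27ac, mutant H3K27ac, control H3K4me3 and mutant H3K4me3 lists. They held 77349, 122487, 86798 and 85780 peaks, so list lengths differed. Whether the calling limits differed is not given.

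The 8 genes, the lists of related genes and the measures were chosen with earlier results of these data known. All 8 genes are named, with related genes whose marked state differed between the lists, 6 others set by the naming rule (Zscan4a, Zscan4b, Zscan4e, Duxbl1, Dppa2 and Dppa4), and the neighbour that a member's peak also reached. The 2-cell list had 38 names, 28 matched by symbol and 7 by synonym, 32 of them protein-coding. Nelfa and Trp53 complete the activator list.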

Additional observations from a re-analysis of the deposited data

How the results depend on the processing

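Alternatives were a gene-end window of 1 or 5 kb, the transcription start alone, merging of peaks less than 1 kb apart, common limits (merging under 750 bp and a width of at least 200 bp), the wider 50% of each list, an overlap of at least 500 bp, lists of equal size, and 100 kb on each side of the gene. Of 148 recomputed values, 120 lay within 1.5 times the value they were compared with and 28 did not. That value was the reported one, except for the start alone, where it was the gene-end value over the 5 genes with a promoter sequence. H3K4me3 in the mutant list alone held for both Zscan4c and Zscan4f except with 5 kb windows, where 1 gene (Zscan4c) was counted, and with the wider 50% of peaks, where 1 gene (Zscan4f) was counted. Peaks in the control H3K27ac list alone, 0 as reported, became 1 with the wider 50% (Zscan4c), 1 with an overlap of 500 bp (Zscan4c), 1 with common limits (Zscan4f) and 2 with equal size (Zscan4c and Zscan4f). H3K27ac in the mutant list alone became 1 (Duxf3) with the start alone, with 1 kb windows and with an overlap of 500 bp. With 1 kb windows, 1 gene (Zscan4d) had an H3K4me3 peak in the control list alone. In the order control H3K27ac, mutant H3K27ac, control H3K4me3 and mutant H3K4me3, median gene-end bases were 2023.5, 708, 1557.5 and 1556 bp with 1 kb windows, and 5460.5, 5006.5, 6517 and 4944.5 bp with 5 kb windows. Medians over 100 kb on each side were 47524.5, 39524.5, 37304 and 28340.5 bp. With the start alone (2 kb to either side, wider than the 300-base promoter), over the 5 genes that have one, 3 genes were marked in the control H3K27ac list and 4 in the mutant H3K27ac list. At the promoter itself the counts were 3 and 0. With the start alone the median widest H3K27ac peak was 6505 bp in the control and 2149.5 bp in the mutant list. At all gene ends of these 5 genes it was 1679 and 851 bp. With an overlap of at least 500 bp, 6 genes were marked in each H3K27ac list. With the wider 50% of peaks, 6 genes were marked in the control and 5 in the mutant H3K27ac list. The median widest mutant H3K4me3 peak was then 6779.5 bp, and the median mutant H3K4me3 extent in 100 kb was 6105.5 bp. Under that setting the 100 kb H3K27ac median was higher in the mutant list, 15886.5 against 16764.5 bp, opposite to the reported order. The cause of these moves was not tested. No paired analysis was possible because the libraries of a group share 1 peak list with no values of their own. Leaving out a replicate was not run for the same reason. Without values per library, the depth sets a limit on every narrow peak that cannot be stated.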

Other observations

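The Zscan4 cluster, from Zscan4a to Zscan4f (chr7:10794241-11402318, 608 kb), also held wide peaks between the Zscan4 genes. H3K27ac peaks covered 107 kb (17.5%) of the span in the control list and 98.5 kb (16.2%) in the mutant list, in 49 and 57 peaks. H3K4me3 peaks covered 64.9 kb (10.7%) and 45.7 kb (7.52%), in 26 and 21 peaks. The gene-end windows of the 6 copies, 48 kb in all, were covered for 25.1% by control and 17.9% by mutant H3K27ac, and for 16.8% by control and 10.95% by mutant H3K4me3. The widest control H3K27ac peak, 22931 bp, lay over the pseudogene Zscan4-ps1 and Gm7151, 54.0 kb from Zscan4c. The widest mutant H3K27ac peak, 16293 bp, lay over Gm6909, and the widest mutant H3K4me3 peak, 11656 bp, over Zscan4-ps1. The widest control H3K4me3 peak, 10498 bp, lay over Gm18781 and Gm7203, 3.66 kb from Zscan4a. The second widest control H3K4me3 peak, 6058 bp, lay over Zscan4d. These spans were chosen after the peaks had been seen, and the families around them are repeated, so their placement carries the limit given for the Zscan4 genes.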
